A study of Mus musculus with 3 samples.

Results

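The genes described here are the 8 mouse genes of MHC class II antigen presentation that were followed across intestinal epithelium: *H2-Aa*, *H2-Ab1*, *H2-Eb1*, *Cd74*, *H2-DMa*, *H2-DMb1*, *H2-DMb2* and *Ciita*. They were taken by gene symbol from the 28692 genes of the deposited tables, and all 8 were present. Their levels were read in single cells of small intestinal crypts from adult C57BL/6 mice of 2 to 3 months, dissociated with TripLE and prepared as droplet libraries (10x Genomics Chromium, 3' chemistry, version 3). Each genotype had 1 library. The rescue library came from CDC42flox/flox mice that also carried Yapflox/flox and Tazflox/+, the KO library from CDC42flox/flox mice, and the control library, labelled Het, from CDC42+/flox mice. All of them, control included, carried Olfm4-IRES-eGFPCreERT2, a tamoxifen-activated Cre placed in *Olfm4*, a gene of crypt base cells, so that deletion starts in *Olfm4*-positive cells and passes to their descendants. The number of animals behind each library, the time after induction and the deleted exons are not given in the sources used here. CDC42 is a small GTPase of cell polarity, and YAP and TAZ, encoded by *Yap1* and *Wwtr1*, are the co-activators restrained by the Hippo pathway.

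Class II molecules show peptides taken up from outside the cell to CD4 T cells. The alpha and beta chains pair in the endoplasmic reticulum with the invariant chain (*Cd74*), which holds the groove closed until endosomal proteases cut it, and H2-DM (*H2-DMa* with *H2-DMb1* or *H2-DMb2*) then exchanges the remaining fragment for peptide. *Ciita* encodes the co-activator that turns on the set, is itself induced by interferon-gamma, and works through RFX, CREB and NF-Y bound side by side at the promoters. Dendritic cells, macrophages and B cells make class II constitutively, mouse T cells do not, and small intestinal epithelium, crypt stem cells included, is known to make it under interferon-gamma.

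The promoters of 4 members are shown because the letters of the NF-Y site can be seen in each, and because *H2-Eb1*, *H2-DMb1* and *H2-Aa* shared 1 order of the libraries while *H2-DMb2*, with letters close to those of *H2-DMb1*, was nearly absent. RefSeq promoter windows (GRCm38.p6) were listed for 5 of the 8 members, and *H2-Ab1*, *Cd74* and *Ciita* were not matched. Each line gives the 150 bases before the start, 5' to 3' on the strand of the gene. Capitals mark GATTGG, the core of the Y box bound by NF-Y, and, where present, GATGATG, which overlaps the end of the X box and whose letters were chosen after these sequences had been read. The windows are *H2-Eb1* at chr17:34305717-34305866, *H2-DMb1* at chr17:34153041-34153190, *H2-DMb2* at chr17:34145099-34145248 and, on the minus strand, *H2-Aa* at chr17:34287824-34287973.
H2-Eb1: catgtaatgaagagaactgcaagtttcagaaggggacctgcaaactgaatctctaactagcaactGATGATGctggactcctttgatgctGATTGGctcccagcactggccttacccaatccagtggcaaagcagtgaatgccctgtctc
H2-DMb1: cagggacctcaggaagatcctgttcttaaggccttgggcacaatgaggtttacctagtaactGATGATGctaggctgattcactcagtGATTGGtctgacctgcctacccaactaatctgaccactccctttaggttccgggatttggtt
H2-DMb2: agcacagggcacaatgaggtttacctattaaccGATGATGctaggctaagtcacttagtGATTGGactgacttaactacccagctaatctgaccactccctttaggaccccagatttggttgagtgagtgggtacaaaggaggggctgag
H2-Aa: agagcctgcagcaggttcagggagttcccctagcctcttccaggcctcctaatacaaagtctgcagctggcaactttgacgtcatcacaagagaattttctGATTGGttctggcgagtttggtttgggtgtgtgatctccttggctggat
In the gene's own direction GATTGG began 60 bases upstream of the start in *H2-Eb1*, 62 in *H2-DMb1*, 91 in *H2-DMb2* and 49 in *H2-Aa*, and *H2-Eb1* had it again on the opposite strand, 35 bases upstream. One *H2-DMa* window also held it, 199 bases upstream. On either strand it was found in 14.6% of all 32851 windows of 250 upstream bases. GATGATG began 85 bases upstream in *H2-Eb1*, 88 in *H2-DMb1* and 117 in *H2-DMb2*, and was found on either strand in 959 windows (2.92%). GATTGG followed it within 40 bases on the gene's strand in 6 windows (0.0183%), among them those of these 3 members. GCAACNG, a shorter X box core, was found in 10.2% of windows and among the members in *H2-Eb1*, 91 bases upstream and overlapping GATGATG. A match describes the letters of the window and not a bound factor.

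The 6 H2 members lie in the class II region of chromosome 17, and the other 2 lie elsewhere (GENCODE vM21 on GRCm38, matched by gene identifier; 98.8% of identifiers matched). In order along chromosome 17 they are *H2-DMa* (ENSMUSG00000037649, 34119541-34139101), *H2-DMb2* (ENSMUSG00000037548, 34143307-34151555), *H2-DMb1* (ENSMUSG00000079547, 34153072-34160230), *H2-Ab1* (ENSMUSG00000073421, 34257689-34269419), *H2-Aa* (ENSMUSG00000036594, 34282744-34287823) and *H2-Eb1* (ENSMUSG00000060586, 34305867-34316674). *H2-Aa* is on the minus strand and the other 5 are on the plus strand. *Cd74* (ENSMUSG00000024610) is at chromosome 18: 60803848-60812652 and *Ciita* (ENSMUSG00000022504) at chromosome 16: 10480059-10528418, both on the plus strand. All 8 are protein-coding, and the counted tags come from the 3' end of their transcripts. Of the 831 stretches of 50 bases in the last 400 bases of *H2-DMb1* transcripts, 183 also occur in *H2-DMb2*, and 62 of the 357 of *H2-DMb2* occur in other genes, so values of these neighbours are uncertain. None of the stretches of the other 6 members occurs in another gene.

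The deposited tables held 3449 barcodes in the rescue, 4786 in the KO and 6152 in the control library, with 64355665, 85525811 and 58433966 UMIs (unique molecular identifiers, each standing for 1 captured transcript) in that order. Cells had to show 500 genes and 1000 UMIs or more, with no more than 20% of UMIs from mitochondria, and after doublet removal 1868 rescue, 2003 KO and 1575 control cells remained. The mitochondrial limit alone removed 38.3% of rescue, 54.1% of KO and 66.3% of control barcodes. At most 11 barcodes were shared by any pair of libraries, and at most 3 among kept cells. Epithelial clusters held 992 rescue, 1643 KO and 540 control cells, with median depths of 40554.5, 38968 and 33649 UMIs, and the class II genes were left out of the clustering. *Epcam*, the epithelial adhesion molecule, stood at 2051, 2552 and 1507 CPM there, and the leukocyte gene *Ptprc* at 2.11, 0.340 and 2.06 CPM. *Cdc42* was not lower in the CDC42flox/flox libraries (389, 385 and 245 CPM in rescue, KO and control epithelium), *Yap1* stood at 20.5, 24.7 and 26.0 CPM and *Wwtr1* at 2.98, 13.3 and 7.35 CPM. The tags are read at the 3' end and say nothing of an exon deleted elsewhere, so each direction below rests on the library labels. With 1 library per genotype no difference was tested. Levels are CPM, the UMIs of a gene per 1000000 UMIs of the summed cells, and all intervals are exact 95% intervals that cover counting error only.

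Every class II member that could be measured was highest in rescue epithelium and lowest in KO epithelium. Added over the 8 genes, class II transcripts made up 1340 CPM (1329-1351) in the rescue, 28.5 CPM (27.2-29.9) in the KO and 106 CPM (101-110) in the control library. The rescue level was 12.7-fold (12.1-13.3) over the control and 47.0-fold (44.9-49.3) over the KO, and the KO level was 3.71-fold (3.48-3.95) under the control. *H2-DMb2* was too rare to be compared. Of the 6 members measured in the KO and control libraries (at least 20 UMIs in 1 of them), 5 were more than 2-fold lower in the KO with an interval excluding 1, where 25.1% of 12653 genes were. Of the 7 measured in the rescue and the control, 7 were more than 2-fold higher in the rescue, where 3.64% of 12565 genes were, and 7 of 7 were so against the KO, where 23.2% of 12786 genes were. The KO over control difference in all epithelium depended on how cells were chosen. A looser choice took barcodes of at least 200 genes with more *Epcam* than *Ptprc* UMIs, without a mitochondrial limit, clustering or doublet removal. With it the sum was 90.2 CPM in the KO and 107 CPM in the control, a log2 ratio of −0.25. Cells of other kinds that hold class II can enter this choice. Which of its changes moved the ratio was not tested.

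*Cd74*, the invariant chain, made up most class II transcripts of the rescue and control epithelium. It stood at 800 CPM (791-808) in the rescue, 12.3 CPM (11.5-13.2) in the KO and 60.5 CPM (57.1-64.0) in the control library, from 34930, 762 and 1202 UMIs. The rescue stood far above the other 2 libraries, 13.2-fold (12.5-14.0) over the control and 64.8-fold (60.3-69.7) over the KO, and the KO was 4.90-fold (4.47-5.38) under the control. Among genes of at least 50 CPM in 1 library of the pair, *Cd74* ranked 7 of 2812 from the highest in rescue over control and 14 of 3081 in rescue over KO, and 90 of 3013 from the lowest in KO over control. It supplied 59.7% of epithelial class II UMIs in the rescue, 43.3% in the KO and 57.3% in the control.

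*H2-Ab1* and *H2-Aa* encode the beta and alpha chains of I-A, the class II molecule that C57BL/6 mice display. *H2-Ab1* stood at 188 CPM in the rescue, 4.26 CPM in the KO and 16.7 CPM in the control library. The same order held for *H2-Aa*, at 119, 2.01 and 4.53 CPM. In the rescue *H2-Ab1* was 11.3-fold (10.1-12.6) and *H2-Aa* 26.4-fold (21.4-32.9) over the control, the largest ratio of the measured members in that comparison. In the KO *H2-Ab1* was 3.92-fold (3.33-4.63) and *H2-Aa* 2.26-fold (1.70-2.98) under the control. *H2-Eb1* encodes the beta chain of I-E, which has no functional alpha partner in C57BL/6 mice. It stood at 139 CPM in the rescue, 7.33 CPM in the KO and 10.9 CPM in the control library, so that the KO was 1.49-fold (1.26-1.75) under the control, the smallest difference of the 6 members, while the rescue was 12.7-fold (11.1-14.7) over it. It was 25.7% of epithelial class II UMIs in the KO, against 10.4% in the rescue and 10.3% in the control. *H2-Eb1* and *H2-Aa* are the members whose KO over control direction turned with the choice of cells. Under the looser choice described above *H2-Eb1* stood at 16.5 CPM in the KO and 11.6 CPM in the control. *H2-Aa* stood there at 10.4 CPM in the KO and 5.90 CPM in the control. Under a stricter filter (at least 1000 genes, 2000 UMIs and at most 10% mitochondrial UMIs) *H2-Eb1* stood at 5.64 CPM in the KO and 4.41 CPM in the control.

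The genes of the peptide exchanger followed. *H2-DMa* stood at 46.4 CPM in the rescue, 1.44 CPM in the KO and 8.91 CPM in the control library, with the rescue 5.21-fold (4.47-6.11) over and the KO 6.18-fold (4.77-8.07) under the control. *H2-DMb1* stood at 42.4, 1.10 and 3.67 CPM in rescue, KO and control, and its rescue level was 11.5-fold (9.12-14.8) over and its KO level 3.34-fold (2.37-4.71) under the control. *H2-DMb2*, the second DM beta gene, was nearly absent, with 2 UMIs in 992 rescue cells and 0 in 1643 KO and 540 control cells, where 3 counts would have been 0.0486 and 0.151 CPM. *Ciita*, the transcriptional switch, is a rare transcript. It had 203 UMIs in rescue epithelium (4.65 CPM), 1 in KO epithelium (0.0162 CPM) and 8 in control epithelium (0.403 CPM). The rescue was 11.5-fold (5.75-27.1) over the control and 287-fold (51.0-11395) over the KO, and the KO was 24.9-fold (3.33-1104) under the control on 1 UMI against 8.

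**Figure D1:**
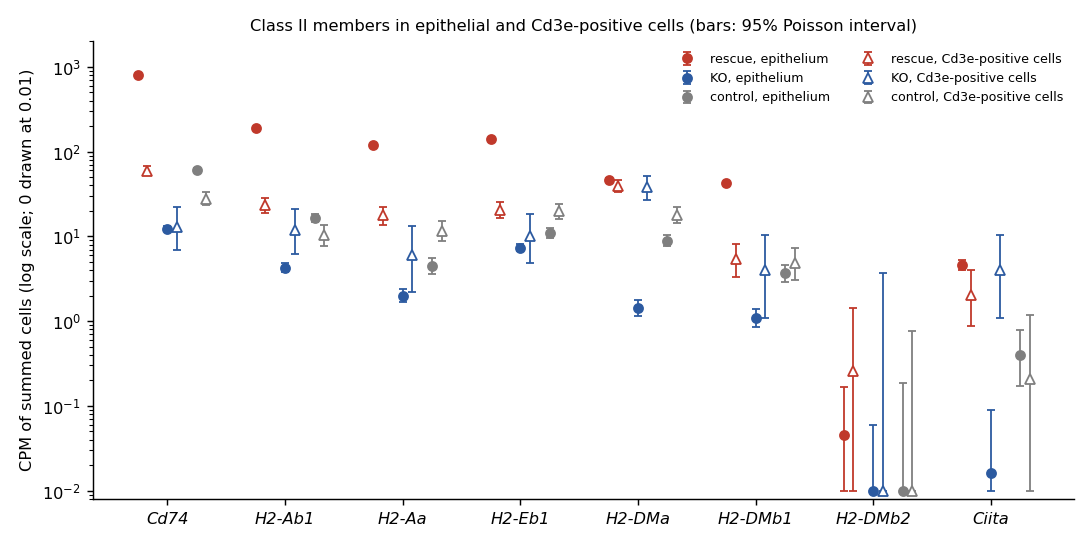
Level of each class II member (CPM of summed cells, log scale, 0 drawn at 0.01) in epithelial cells (filled circles) and in Cd3e-positive cells (open triangles) of the rescue, KO and control libraries, with exact 95% Poisson intervals. Rescue epithelium lies above the Cd3e-positive cells of its own library for Cd74, 800 against 59.8 CPM, whereas KO epithelium, at 12.3 against 13.04 CPM, does not.

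Cells that should lack class II were used as a measure of the level that free RNA in the droplets can give. Cd3e-positive cells outside the epithelial clusters (719 rescue, 179 KO and 910 control cells) held 0.914, 0.486 and 0.486 class II UMIs per cell in rescue, KO and control, against 59.0, 1.07 and 3.89 in epithelial cells. By CPM, which weighs the shallower T cells up (medians of 5023, 4643 and 5146.5 UMIs), their sum was 169 CPM in the rescue, 87.3 CPM in the KO and 93.0 CPM in the control. Of this sum, 6 rescue, 1 KO and 12 control cells with at least 10 class II UMIs held 29.98%, 12.6% and 39.6%. So the Cd3e-positive level was not even over cells, and how much of it is free RNA was not tested. Rescue epithelium stood 7.95-fold (7.36-8.60) over the Cd3e-positive cells of its library, control epithelium 1.14-fold (1.03-1.26) over and KO epithelium 3.06-fold (2.44-3.80) under. With each cell thinned to 2000 UMIs, a *Cd74* UMI was found in 62.8% (59.5-66.0) of rescue, 1.97% (1.33-2.80) of KO and 6.81% (4.76-9.39) of control epithelial cells, and in 9.05%, 2.25% and 3.39% of Cd3e-positive cells. Unthinned, the epithelial shares were 85.0%, 9.74% and 32.6%. The thinned *Cd74* share over all KO epithelium was not above that of KO Cd3e-positive cells. Thinning, like CPM, weighs the shallower T cells up. Unthinned, KO epithelium held 762 *Cd74* UMIs in 1643 cells, and KO Cd3e-positive cells held 13 in 179. Whether the KO level is background was not tested. *Cd74* stood at 29.3 CPM in KO cluster 3, of enterocyte-like cells, against 12.3 CPM over all KO epithelium. Single KO cells with many class II UMIs are given below. In the control *Cd74* was 2.16-fold (1.81-2.61) over its Cd3e-positive cells by CPM, while *H2-Aa* (4.53 against 11.6 CPM), *H2-Eb1* (10.9 against 19.98 CPM) and *H2-DMa* (8.91 against 18.1 CPM) were below them. *H2-DMa* in Cd3e-positive cells stood at 39.5 CPM in the rescue and 38.1 CPM in the KO as well.

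Cells of other kinds that held class II are given beside the epithelium. C1qa-positive cells were few, with 22 in the rescue, 64 in the KO and 7 in the control, and held *Cd74* at 4314, 1605 and 26371 CPM. A cluster with dendritic and mast cell markers (23 rescue, 41 KO and 10 control cells) held a class II sum of 36840, 36093 and 35444 CPM, so there the libraries lay close together. Per 1000 *Cd74* UMIs, C1qa-positive cells had 1559, 4498 and 167 UMIs of the complement C1q genes in rescue, KO and control. The dendritic and mast cluster had 138, 25.8 and 116, and epithelium 0.973, 87.9 and 14.975, in the same order. Rescue Cd79a-positive cells had 0.688. The 141 control stem-like cells described below had 664 *Cd74* UMIs and no C1q UMI. *H2-DMb2* reached 24.8 UMIs per 1000 *Cd74* UMIs in 29 rescue Cd79a-positive cells, which lay in a cluster with plasma and B cell genes, 13.3 in the rescue dendritic and mast cluster and 8.93 in rescue C1qa-positive cells, against 0.0573 in rescue epithelium. It stood at 0.678 in KO C1qa-positive cells, on 1 UMI, and at 14.1 in control C1qa-positive cells. Markers of the other cell types in epithelium are given as values, and their part in the class II levels was otherwise not tested. T cell markers summed to 67.5, 9.39 and 101 CPM in rescue, KO and control epithelium, with all 13 detected in the rescue and the KO, and all but *Cd8b1* in the control. The 10 macrophage markers summed to 6.20, 11.3 and 7.30 CPM, led by *Apoe*, with *Fcgr1* at 0 in all 3 libraries and *C1qb*, *C1qc*, *Adgre1* and *Ms4a7* also at 0 in the control. The 10 dendritic markers summed to 101, 34.6 and 56.3 CPM, of which *Irf8*, also an interferon-responsive gene, gave 100.02, 34.5 and 55.3 CPM; *Clec10a* was at 0 in the rescue, *Flt3*, *Clec9a* and *Cd209a* in the KO, and *Clec9a*, *Clec10a*, *Cd209a* and *Batf3* in the control. Of the B cell list 9 markers summed to 5.79, 1.51 and 3.72 CPM, in the same order of libraries as class II, with *Cd22* at 0 in the rescue, *Cd79a*, *Ighd*, *Cd22*, *Pax5* and *Fcmr* in the KO, and *Pax5* in the control. They were led by *Cd79b* at 4.78, 1.39 and 1.61 CPM. In the ISC-like and TA-like cells the 9 summed to 9.43, 5.18 and 4.01 CPM, with the KO above the control. Plasma cell markers summed to 232, 248 and 208 CPM, mostly *Xbp1*, which secretory epithelium also uses, with *Tnfrsf17* at 0 in all 3 libraries and *Mzb1* in the KO. Mast cell markers summed to 0.320, 4.50 and 0.654 CPM, with *Ms4a2* at 0 in all 3 libraries, *Fcer1a* in the rescue, and *Cpa3* in the KO and the control. Restricting the comparison to epithelial cells with no UMI of *Ptprc*, *Cd3e*, *C1qa*, *Cd79a*, *Itgax* or *Jchain* left sums of 1407, 28.7 and 88.1 CPM in rescue, KO and control.

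The epithelial types differed in class II level within each library, and their order was not the same in the 3 libraries. Types were named from marker lists over clusters. In each library that held the type, all markers of the ISC-like, enterocyte-like, goblet-like, enteroendocrine-like and Paneth-like cells, and 14 to 18 of the 18 TA markers in TA-like cells, were more than 2-fold over the other epithelial cells. Among the named types of the rescue the class II sum was highest in enterocyte-like cells, the absorptive lineage, at 3030 CPM (2981-3079, 360 cells), and in stem-cell-like (ISC-like) cells at 2387 CPM (2303-2472, 30 cells). The enterocyte-like value rests on 86 cells of cluster 10 at 3540 CPM, and the other 274 cells, in cluster 7, stood at 967 CPM, below the ISC-like and TA-like cells. Unnamed cluster 11, with 191 rescue cells at 1067 CPM, was not ranked. At resolution 0.6 an enterocyte-like cluster held 277 rescue cells, against 86 in cluster 10. Counting cluster 11 as enterocyte-like would lower the enterocyte-like value, and the order of types was not computed at that setting. The first place of enterocyte-like cells therefore holds for the main clustering only. Below the enterocyte-like and ISC-like cells stood the dividing transit amplifying (TA-like) cells at 1167 CPM (319 cells). Mucus-secreting goblet-like cells stood at 912 CPM (45 cells), hormone-secreting enteroendocrine-like cells at 696 CPM (22 cells) and antimicrobial Paneth-like cells at 455 CPM (17 cells). Neighbouring intervals did not overlap, but they cover counting error only. In goblet-like, enteroendocrine-like and Paneth-like cells, 17, 5 and 6 cells held 96.1%, 88.5% and 96.1% of the class II UMIs. After thinning, 43.2% (28.3-59.0), 36.4% (17.2-59.3) and 29.4% (10.3-56.0) of cells held a class II UMI, with overlapping intervals. The order among these last types was therefore not established. In the control ISC-like cells were highest at 199.9 CPM (188-213, 141 cells), followed by enterocyte-like cells at 128 CPM (119-138, 143 cells) and Paneth-like cells at 57.7 CPM (50.8-65.3, 50 cells). Control enteroendocrine-like cells at 37.1 CPM (26.8-50.2), goblet-like cells at 32.1 CPM (24.3-41.7) and TA-like cells at 26.0 CPM (19.1-34.7) did not differ beyond their counting error. In the KO, where no cell was ISC-like or Paneth-like, enterocyte-like cells stood at 39.5 CPM (37.6-41.5, 904 cells), enteroendocrine-like cells at 28.9 CPM (13.2-54.8, on 9 UMIs), goblet-like cells at 10.4 CPM (7.71-13.6) and TA-like cells at 7.95 CPM (6.64-9.45), so that neighbours in this order had overlapping intervals. Tuft-like cells were 8 or fewer in each library. By CPM, which weighs the shallower T cells up, every KO type was below the 87.3 CPM of the KO Cd3e-positive cells. By the same measure control ISC-like cells were 2.15-fold (1.92-2.41) and enterocyte-like cells 1.38-fold (1.22-1.56) over the Cd3e-positive cells, and the TA-like cells 3.57-fold (2.63-4.95) under. Per cell the direction turned for some types. Control TA-like cells held 1.07 and KO enterocyte-like cells 1.73 class II UMIs per cell, more than the Cd3e-positive cells of their libraries. KO enteroendocrine-like, goblet-like and TA-like cells, at 0.333, 0.259 and 0.411, held fewer.

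**Figure D2:**
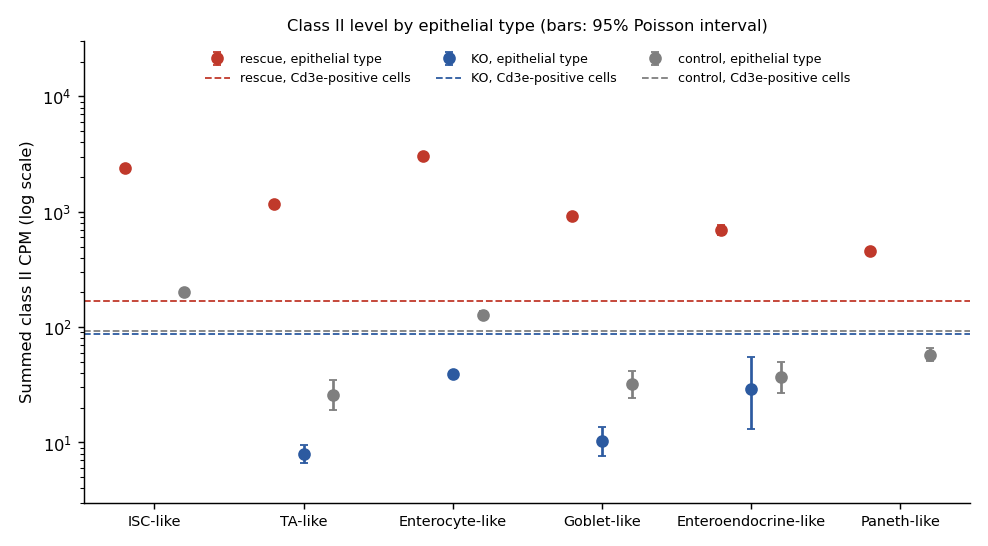
Class II sum (CPM, log scale) by epithelial type in the rescue, KO and control libraries, with exact 95% Poisson intervals, and the level in Cd3e-positive cells of each library as a dashed line. The rescue types lie between 455 and 3030 CPM, above the 169 CPM of rescue Cd3e-positive cells, and all 4 KO types lie below the 87.3 CPM of KO Cd3e-positive cells.

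Where 1 cluster held cells of 2 libraries, the comparison could be made within it. The rescue over control ratio of the class II sum was 43.9 (32.9-60.0) in TA-like cluster 4, which held 317 rescue and 41 control cells. It was 11.9 (11.1-12.8) in ISC-like cluster 13, 27.7 (25.7-29.97) in enterocyte-like cluster 10, 28.4 (21.8-37.7) in goblet-like cluster 6, 18.8 (13.6-26.4) in enteroendocrine-like cluster 17 and 7.88 (6.83-9.12) in Paneth-like cluster 22. The lowest of these ratios, 5.40 (2.93-11.3), was in enterocyte-like cluster 7, a shallow cluster with a median of 2732.5 UMIs led by *Ubd*, a ubiquitin-like modifier induced by interferon (274 rescue and 21 control cells). The rescue was higher in all 7. Goblet-like cluster 6 held all 3 libraries, with *Cd74* at 493 CPM in 45 rescue, 2.84 CPM in 197 KO and 8.03 CPM in 70 control cells, and there the class II sum was 3.103-fold (2.09-4.63) below the control in the KO. In enteroendocrine-like cluster 17 the control over KO ratio was 1.29 with an interval (0.617-3.00) that includes 1, so a difference was not detectable at this depth. KO TA-like cells lay in cluster 5 (314 cells) and all but 3 KO enterocyte-like cells in clusters 2 and 3 (490 and 411 cells), clusters with at most 2 cells of any other library, so cluster and library cannot be told apart for those types.

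Progenitors, the ISC-like and TA-like cells, were also compared on their own, and Cre activity in them was not measured. *Cd74* stood at 767 CPM in 349 rescue cells, 2.71 CPM in 314 KO cells and 102 CPM in 184 control cells. That made the KO 37.7-fold (27.8-52.4) lower and the rescue 7.50-fold (6.95-8.11) higher than the control. The class II sum was 1236, 7.95 and 154 CPM in rescue, KO and control, and all 6 measured members lay more than 2-fold below the control in the KO, where 13.6% of 10985 genes did. All 7 measured members were more than 2-fold higher in the rescue than in the control, where 4.17% of 11297 genes were, and higher than in the KO, where 7.9% of 11437 genes were. *H2-Ab1* had 3745 UMIs in rescue, 12 in KO and 101 in control progenitors, and *Ciita* had 83, 0 and 2, at least 19.6-fold higher in the rescue than in the KO with 3 counts over the KO group as the floor. Among genes of at least 50 CPM, *Cd74* had the highest rescue over KO ratio of 3163 genes in progenitors, and the eighth lowest KO over control ratio of 3387. The cell mix differed: 141 of 184 control progenitors were ISC-like, against 30 of 349 in the rescue and 0 of 314 in the KO. In TA-like cells alone the sum stood at 1167, 7.95 and 26.0 CPM, 3.27-fold (2.29-4.62) lower in the KO and 44.8-fold (33.6-61.2) higher in the rescue than in the control, which rests on 46 UMIs in 43 control cells. *Lgr5*, the R-spondin receptor of stem cells, marks progenitors without clusters. Among epithelial cells with an *Lgr5* UMI (73 rescue, 17 KO and 166 control cells) *Cd74* stood at 1057, 4.42 and 102 CPM, the KO value on 2 UMIs.

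The rescue level came from most cells and the control level from few. A class II UMI was found in 92.6% of rescue, 29.4% of KO and 53.1% of control epithelial cells. The median rescue cell held 29.5 class II UMIs, the median KO cell 0 and the median control cell 1. At least 10 class II UMIs were found in 607 rescue cells (61.2%), 34 KO cells (2.07%) and 47 control cells (8.70%). These cells held 98.1%, 60.6% and 70.1% of the class II UMIs of all epithelial cells of their library. A cut of 10 was chosen after the values had been seen. Of the Cd3e-positive cells 6 of 719, 1 of 179 and 12 of 910 reached it in rescue, KO and control. All 30 rescue ISC-like cells and 292 of 319 rescue TA-like cells reached it, against 30 of 141 control ISC-like cells, 0 of 43 control TA-like cells and 1 of 314 KO TA-like cells. Of the 34 KO cells 33 were enterocyte-like, with a median depth of 50318 UMIs against 46153.5 UMIs in all KO enterocyte-like cells, and 2 of the 34 held an immune marker UMI. The highest cell held 483 class II UMIs in the rescue, 115 in the KO and 119 in the control.

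**Figure D3:**
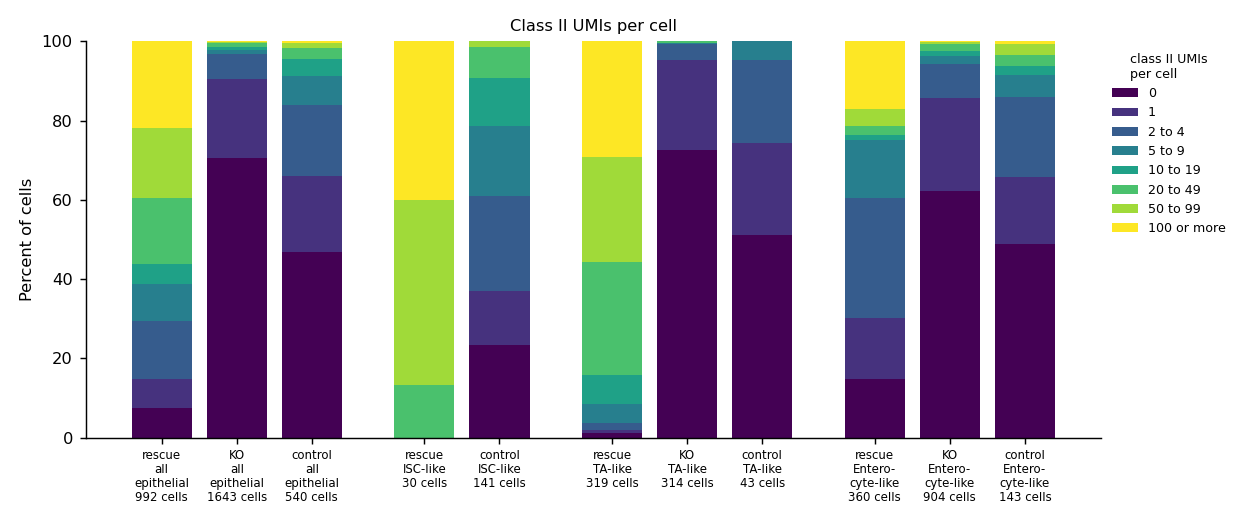
Percent of cells by number of class II UMIs in all epithelial, ISC-like, TA-like and enterocyte-like cells of the rescue, KO and control libraries (no KO cell was ISC-like), not corrected for depth. At least 10 class II UMIs were held by 61.2% of rescue, 2.07% of KO and 8.70% of control epithelial cells.

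Rescue enterocyte-like cells fell into the 2 clusters named above. In cluster 10 the 86 rescue cells held a median of 155.5 class II UMIs and the class II sum stood at 3540 CPM, while in shallow cluster 7 the 274 rescue cells held a median of 2 UMIs and the sum stood at 967 CPM. Over all epithelium of each library *H2-Ab1* was found more often in cells with *Cd74* than in cells without. In thinned cells *H2-Ab1* was found in 35.4% of rescue epithelial cells with a *Cd74* UMI and in 11.7% of those without, in 16.7% and 0.736% of KO cells and in 11.8% and 3.23% of control cells. Cells with both genes numbered 199 in the rescue but only 5 in the KO and 4 in the control, the latter 2 groups all enterocyte-like. Of control ISC-like cells 0 held both, 19 *Cd74* only and 6 *H2-Ab1* only. At least 3 of the 8 members were found in 20.4% of rescue, 0.131% of KO and 0.601% of control thinned cells. In rescue cluster 10 that share was 67.9%.

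The other genes of the pathway shared the class II pattern only in part. Lists were chosen with earlier results of these data known, and a member was measured with at least 20 UMIs in 1 library of the pair. The 7 factors that bind class II promoters (RFX, CREB1 and NF-Y subunits) were all measured, and over the 3 comparisons 2 of their ratios passed 2-fold, 1 of 7 lower in KO over control, where 25.1% of all genes were, and 1 of 7 higher in rescue over KO, where 23.2% were. *Rfx5*, the DNA-binding RFX subunit, stood at 4.26, 2.33 and 5.69 CPM in rescue, KO and control, 2.44-fold below the control in the KO. *Nfya*, the sequence-specific NF-Y subunit, stood at 11.5, 5.07 and 8.86 CPM, and its rescue level was 2.27-fold over the KO. *Rfxank*, another RFX subunit, stood at 11.7, 15.7 and 9.86 CPM, and *Nfyb*, of the histone-like NF-Y pair, at 24.7, 24.6 and 23.9 CPM. The median log2 ratio of the list was −0.28 in KO over control, where it was −0.27 over all genes measured, and 0.12 in rescue over control, where it was 0.01.

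Part of the genes that process class II cargo were higher in the KO library, opposite to the members. Of 8 measured, 4 were more than 2-fold higher over the control in the KO, where 10.2% of genes were, and none lower, where 25.1% were. *Ctsd* and *Ctsl*, lysosomal cathepsins of which cathepsin L can cut the invariant chain, stood at 84.2, 301 and 80.2 CPM and at 21.9, 121 and 35.9 CPM in rescue, KO and control. The other 2 were *Lgmn* and *Ctsb*, also lysosomal proteases. *Ifi30*, the thiol reductase that opens disulfide bonds of antigens, stood at 194, 206 and 174 CPM, and *Sppl2a*, which removes the last invariant chain fragment from the membrane, at 68.7, 70.7 and 59.1 CPM. In rescue over KO 3 of 8 were more than 2-fold lower, where 10.5% of genes were, and in rescue over control none of 8 passed 2-fold. Of the costimulatory and checkpoint ligands 1 of 6 was measured, *Icosl*, the ligand of ICOS on T cells, at 2.36, 2.48 and 4.23 CPM. The class II genes outside the members, such as *H2-Oa* and *H2-Ob*, were not measured (0 of the 3 in the table).

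Interferon-gamma response genes were divided. In rescue over control 7 of 19 measured genes were more than 2-fold higher, where 3.64% of genes were, and 1 lower, where 11.4% were (median log2 ratio 0.58), and in rescue over KO 9 of 19 were higher and 1 lower, where 23.2% and 10.5% of all genes were (median 0.75, where all genes had 0.27). In KO over control 3 of 18 were higher and 8 lower, where 10.2% and 25.1% of all genes were, with a median of −0.49 against −0.27 over all genes. *Irgm1*, an immunity-related GTPase, stood at 17.7, 1.36 and 9.41 CPM in rescue, KO and control, the same order as the members. *Psmb9*, an immunoproteasome subunit, followed it at 157, 18.0 and 73.5 CPM. *Ido1*, which degrades tryptophan, ran the other way between KO and control, at 3.25, 34.2 and 1.21 CPM, and *Ubd* stood at 10.5, 2.85 and 0.151 CPM. In progenitors 6 of 15 were more than 2-fold higher and 1 lower in rescue over control, where 4.17% and 9.34% of all genes were. In rescue over KO 10 of 15 were higher and 1 lower, where 7.9% and 7.35% were, and in KO over control 0 of 12 were higher and 6 lower, where 9.42% and 13.6% were. *Ifng* itself, looked up after the other values had been seen, stood at 47.5 (40.9-54.8), 19.1 (11.5-29.8) and 27.1 CPM (22.6-32.2) in Cd3e-positive cells of the rescue, KO and control libraries. The KO value rests on 19 UMIs, and its interval overlaps that of the control. An *Ifng* UMI was found in 9.87%, 6.70% and 5.38% of these cells, where the KO was not below the control. The type I interferon list of 8 had 1 gene more than 2-fold higher in rescue over control (3.64% of all genes), 2 lower in rescue over KO (10.5%), and 2 higher in KO over control (10.2%). The 2 of KO over control were *Irf7*, the regulator of interferon-alpha genes, at 20.6, 69.6 and 31.3 CPM in rescue, KO and control, and *Mx1*, an antiviral GTPase, at 0.458, 1.23 and 0.302 CPM. *Ifit3* stood at 2.93, 1.93 and 3.02 CPM and *Isg15*, the ubiquitin-like antiviral protein, at 39.9, 36.4 and 46.6 CPM. In progenitors 4 of 5 measured type I genes were more than 2-fold higher in rescue over control (4.17% of all genes) and 0 lower (9.34%). In rescue over KO 2 of 5 were higher (7.9%) and 0 lower (7.35%). In KO over control 1 of 4 was higher (9.42%) and 1 lower (13.6%).

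MHC class I genes were divided in epithelium as a whole. *H2-D1* and *H2-K1*, the classical heavy chains, were highest in the KO, at 419, 654 and 260 CPM and at 505, 691 and 422 CPM in rescue, KO and control. *B2m*, the light chain, and *Tap2*, a subunit of the peptide transporter, had the order of the members, at 588, 365 and 396 CPM and at 20.8, 10.7 and 19.7 CPM. Of the class I list 1 of 5 measured genes was more than 2-fold higher in KO over control, where 10.2% of all genes were, and 1 of 6 was so in rescue over control (3.64%) and in rescue over KO (23.2%). In progenitors 4 of 6 were more than 2-fold higher in rescue over KO, where 7.9% of all genes were, and 2 of 5, *B2m* and *Tap2*, were lower in KO over control, where 13.6% were.

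**Figure D4:**
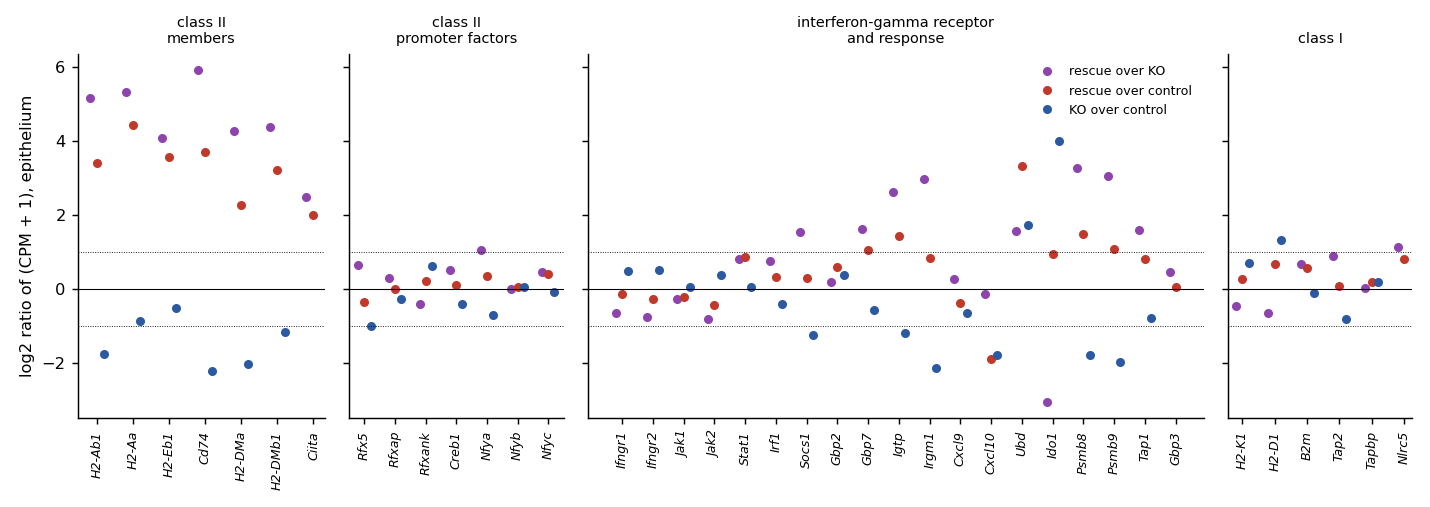
Log2 ratio of (CPM + 1) in epithelium for each measured gene of 4 lists, as rescue over KO, rescue over control and KO over control; dotted lines mark 2-fold. The pseudocount of 1 CPM shrinks ratios of rare genes such as Ciita. The median over class II members is 4.37 in rescue over KO, 3.42 in rescue over control and −1.45 in KO over control, and over the promoter factors 0.47, 0.12 and −0.28.

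The genes whose pattern was most like the members were sought over 18 groups, each an epithelial type of 1 library with at least 20 cells, by the correlation of log2(CPM + 1) with the mean of *H2-Aa*, *H2-Ab1*, *H2-Eb1* and *Cd74*. *H2-DMb1* (r = 0.96), *Ciita* (0.95) and *H2-DMa* (0.94), which do not enter that mean, followed it and *H2-DMb2* did so less (0.38). Among 7836 other genes the 6 nearest were *Psmb8*, an immunoproteasome subunit encoded in the class II region (r = 0.82), *1600014C10Rik* (0.77), *Nme7* (0.74), *St3gal4*, a sialyltransferase (0.73), *Bst2*, the interferon-induced tetherin (0.71), and *B2m* (0.71). *Psmb8* had a median of 317 CPM over the rescue groups, 48.1 CPM over the KO groups and 89.2 CPM over the control groups. *St3gal4* had medians of 104, 0.123 and 1.72 CPM, with rescue groups from 3.09 to 587 CPM. The groups share 3 libraries, and with each library's mean taken out none of the 6 stayed among the nearest 6, which were then *Sord*, *Slc28a2*, *Slc30a2*, *Abhd4*, *Smpdl3b* and *Tmprss15*, the enteropeptidase of the brush border.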

How the data were processed

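The deposited tables hold UMI counts per gene and barcode, not normalized, which the authors made with Cell Ranger, version 1.3.0 per the submitters' processing notes, 3.0.2 (control, KO) and 3.1.0 (rescue) per the file headers. Neither source names the genome build of the counting. The rescue, KO and control libraries are 1 sample each, so no test was made, and spread between animals is unknown.

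From the counts, barcodes with 500 or more genes, 1000 or more UMIs and 20% or less mitochondrial UMIs were kept. Doublets were scored against simulated pairs (2 per cell), and 0.8% per 1000 cells were removed. Cells were clustered together (scanpy 1.11.5, leidenalg 0.10.2, 2000 variable genes, 40 components, 15 neighbours, resolution 1) without 11 class II genes, and clusters were named from 16 marker lists by a rule set after the data had been seen (3 markers and 20% of a list raised). Counts were summed per library and type and given as CPM with exact Poisson intervals. Ratios have conditional exact binomial intervals and shares exact binomial ones (Clopper-Pearson), all at 95% and for counting error only. Ratios with intervals were checked on simulated sums that held counting error only, which cannot test spread over cells or animals. A gene was past 2-fold with a ratio over 2, an interval excluding 1 and at least 20 UMIs in 1 library. Medians over lists used log2(CPM + 1). Shares were thinned to 2000 UMIs per cell, which left out 97 rescue, 119 KO and 41 control epithelial cells.

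The members, gene lists and comparisons were chosen with earlier results of these data known. The 8 members, the targeted genes and type markers, the 2 highest and 2 lowest genes of each list in KO over control, and the 6 genes of most like pattern are named, and a few others as stated. Alternatives covered cell limits, doublets, scaling, thinning, cell definitions, clustering and list settings. One B cell marker is not reported here.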

Additional observations from a re-analysis of the deposited data

Results flagged for a closer look

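Barcodes above the mitochondrial limit enter none of the comparisons, but they too held class II transcripts. Among *Epcam*-positive barcodes over the limit (859 rescue, 1575 KO and 2641 control barcodes), class II UMIs per 1000000 non-mitochondrial UMIs were 3418 (3373-3463) in the rescue, 146 (139-154) in the KO and 233 (224-243) in the control. *Cd74* alone gave 1945, 78.6 and 131. The rescue level was above the control in these barcodes as in the kept cells.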

How the results depend on the processing

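No paired analysis was possible because each genotype has 1 library. All values here are log2 ratios of the class II sum unless said otherwise. In epithelium the ratios were −1.89 in KO over control, 3.67 in rescue over control and 5.56 in rescue over KO, and 17 alternatives gave −2.57 to −0.25, 3.46 to 4.08 and 4.01 to 6.41. They kept their sign in all, and stayed past 2-fold in 16, 17 and 17. KO over control was −1.62 in cells without immune UMIs, −1.44 with median-of-ratios scaling, −2.57 with the Cd3e-positive level subtracted, −1.48 without *Cd74*, and −0.25 with looser limits. The looser limits were 200 genes or more and more *Epcam* than *Ptprc* UMIs, with no mitochondrial limit, clustering or doublet removal. Rescue over control was 4.08 with the stricter filter, 3.60 with doublets kept, 3.998 in cells without immune UMIs, 3.46 as a mean of single-cell CPM, 3.84 with the Cd3e-positive level subtracted, 3.58 without *Cd74*, 3.76 with the looser limits and 3.74 in named clusters. Rescue over KO was 5.98 with the stricter filter, 5.41 as a mean of single-cell CPM, 5.17 with median-of-ratios scaling, 6.41 with the Cd3e-positive level subtracted, 5.06 without *Cd74*, 4.01 with the looser limits and 5.64 in named clusters. Of the members' own ratios, 3 turned: in KO over control *H2-Aa* was 0.82 and *H2-Eb1* 0.50 with the looser limits, and *H2-Eb1* was 0.36 with the stricter filter. The cause was not tested.

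In progenitors the ratios were −4.28, 3.00 and 7.28 in the same order of comparisons, and all alternatives stayed past 2-fold. KO over control was −3.31 without *Cd74*, −4.69 with class II genes kept in the clustering, −4.68 at resolution 1.5, −3.49 in cells with an *Lgr5* or *Mki67* UMI and −1.71 in TA-like cells. Rescue over control was 2.88 with doublets kept, 3.20 in cells without immune UMIs, 3.18 with median-of-ratios scaling, 3.12 with the Cd3e-positive level subtracted, 3.17 without *Cd74*, 3.35 in *Lgr5* or *Mki67* cells and 5.49 in TA-like cells. Rescue over KO was 7.66 in cells without immune UMIs, 6.49 without *Cd74*, 7.68 with class II genes kept in the clustering and at resolution 1.5, and 6.83 in *Lgr5* or *Mki67* cells.

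A *Cd74* UMI was found in 44.9% of rescue epithelial cells thinned to 1000 UMIs, and in 82.1% of rescue, 3.70% of KO and 15.4% of control cells thinned to 5000. Class II UMIs per cell were 7.66, 0.755 and 1.11 in rescue, KO and control over every barcode with a *Cd3e* UMI, and 0.727, 0.631 and 0.651 over T-cell-like clusters. For the interferon-gamma list in epithelium, 5 genes were lower in KO over control with at least 100 UMIs, where the median was −0.18. The median was −0.20 there and 0.31 in rescue over control with a pseudocount of 5, and 1.17 in rescue over KO with at least 100 UMIs. With library means taken out, 0 of the 6 genes of most like pattern stayed. The TA-like limit, like those of depth and of single clusters, was chosen after the data were seen.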
